A study of Homo sapiens with 8 samples.

Results

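The RGS genes *RGS1*, *RGS2*, *RGS10*, *RGS14*, *RGS16*, *RGS18* and *RGS19*, members of the family of regulators of G-protein signaling, were followed through an RNA-seq experiment in MV4-11 cells. They are 7 of the 21 genes with an RGS symbol among the 26364 genes of the expression table. The set was selected on these data, because *RGS1* is lost under palbociclib, so the comparison of palbociclib with control is given here as a description without a test. All 7 passed the filter on low values, which kept 14151 genes that reached 1 TPM (transcripts per 1000000 transcripts, corrected for gene length) in 2 or more libraries. *RGS1* passed it only through the control and TCP libraries.

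MV4-11 is a human acute myeloid leukemia (AML) line that carries FLT3-ITD and MLL-AF4. The cells received the vehicle DMSO (control), tranylcypromine (TCP, an inhibitor of the histone demethylase LSD1) at 5 μM, palbociclib (an inhibitor of the cell cycle kinases CDK4 and CDK6) at 0.5 μM, or the combination of both molecules. RNA was collected on day 4, with 2 replicates in a group, so that 4 groups of 1 cell line make 8 libraries. The methods of the study describe cultures on HS-5 human stromal cells, and palbociclib given before the second molecule. The sources do not say whether the replicates were separate cultures, so the p-values measure only the spread between these libraries.

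RGS proteins switch G protein signals off. A receptor that has bound a chemokine, a lipid or another ligand loads the alpha subunit of its G protein with GTP, and an RGS protein speeds the hydrolysis of that GTP, so that alpha and the beta-gamma dimer rejoin. *RGS1*, *RGS2*, *RGS16* and *RGS18* encode small proteins of the R4 subfamily, with little more than the RGS domain; RGS2 prefers Gq, and RGS1, RGS16 and RGS18 act on Gi and Gq. *RGS10* and *RGS14* belong to the R12 subfamily and act on Gi, and RGS14 also carries a GoLoco motif that binds the inactive alpha subunit. *RGS19* encodes GAIP, of the RZ subfamily. In leukocytes RGS proteins are known as brakes on migration toward chemokines.

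The 3 members that differed most between libraries with and without palbociclib, *RGS1*, *RGS16* and *RGS18*, all lie on chromosome 1, and the bases just before their start sites are shown because the first pair and the third moved in opposite directions. Each run is the 250 bases before the start site, 5′ to 3′ on the gene's strand, from RefSeq on GRCh38.p14, at chr1:192575523-192575772 (+) for *RGS1*, chr1:182604390-182604639 (−) for *RGS16* and chr1:192158212-192158461 (+) for *RGS18*. Capitals mark matches to TTGCNNAA, a C/EBP motif, or GAGGAA, an ETS motif read by SPI1 (PU.1), on either strand.
RGS1: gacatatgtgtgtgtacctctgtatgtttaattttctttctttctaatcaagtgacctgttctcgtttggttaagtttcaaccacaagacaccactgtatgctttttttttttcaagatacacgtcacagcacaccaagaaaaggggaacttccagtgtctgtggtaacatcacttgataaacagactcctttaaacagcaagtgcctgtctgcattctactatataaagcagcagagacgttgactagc
RGS16: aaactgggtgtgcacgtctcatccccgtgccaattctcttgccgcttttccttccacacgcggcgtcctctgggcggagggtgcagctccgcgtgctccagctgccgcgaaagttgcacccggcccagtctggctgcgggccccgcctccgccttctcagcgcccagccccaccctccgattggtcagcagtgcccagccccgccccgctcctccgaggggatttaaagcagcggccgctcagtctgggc
RGS18: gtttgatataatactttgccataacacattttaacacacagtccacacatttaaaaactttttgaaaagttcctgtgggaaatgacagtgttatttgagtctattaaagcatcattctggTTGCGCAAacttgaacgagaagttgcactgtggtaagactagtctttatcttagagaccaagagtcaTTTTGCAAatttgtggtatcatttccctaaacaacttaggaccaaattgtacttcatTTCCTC
The *RGS18* window held 2 C/EBP matches, beginning at −130 and −63 from the start site, and 1 ETS match at −6, given as TTCCTC because it lies on the other strand. The 3 matches do not overlap. No match to either motif was found in the windows of *RGS1* and *RGS16*, which were searched to 50 bases past the start, and none in those of *RGS2* and *RGS14*. Matches were not particular to *RGS18*. *RGS10*, with 2 windows in the table, had an ETS match at 18 in 1 of them, and *RGS19*, also with 2 windows, had an ETS match at −49 in 1 and a C/EBP match at −114 in the other. Of 35116 RefSeq promoter windows of 300 bases, 10.5% held the C/EBP motif and 27.9% the ETS motif. The bases before *RGS16* were rich in G and C, at 68.4%, against 39.2% for *RGS1* and 34.8% for *RGS18*. A match is a run of letters and says nothing of binding.

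Depth is unknown, because every library's TPM add up to one fixed total. A library had 13320 to 13640 genes from 1 TPM up. Its 10 most abundant genes took 9.12% to 9.67% of the total without palbociclib and 13.96% to 15.8% with it. All 8 leukemic cell markers checked (*PTPRC*, *SPI1*, *FLT3*, *CD33*, *HOXA9*, *MEIS1*, *MPO* and *LYZ*) reached 1 TPM in every library. Palbociclib replicate 2 stood apart by stromal genes. The 16 stromal markers in the table summed to 186 TPM there and to 36.9 TPM in palbociclib replicate 1, against 27.1 to 40.1 in control, 39.3 to 45.0 in TCP and 52.8 to 70.1 in combination libraries. Of the 16, 13 were highest in that library, and *POSTN* was at 0 in all. The part of stromal RNA in the results was not tested. Without palbociclib replicate 2, the log2 fold change of palbociclib against control was -3.73 for *RGS1*, -2.37 for *RGS16*, 2.34 for *RGS18* and -0.67 for *RGS2*, with no test. Among markers of other blood cells, *CD3E*, *CD2*, *MS4A1*, *HBB* and *PF4* were at 0 in every library.

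*RGS1* was nearly absent wherever palbociclib was given. Its transcript was at 17.8 and 14.7 TPM in control, 33.0 and 11.2 with TCP, 0.293 and 0.218 with palbociclib, and 0.233 and 0.152 with the combination. All 4 libraries without palbociclib were above all 4 with it, and the TCP libraries lay on either side of the control libraries. The mean with palbociclib was 1.57% of control, a description only, and the log2 fold change was -3.78 (SE 0.42). The comparison of the combination with TCP asks what palbociclib does in cells that also receive TCP. Its means come from libraries outside palbociclib against control, while the spread was estimated over all 8. The genes and tests were chosen with earlier results of these data known. The p-values are therefore no independent support for a loss of *RGS1* in this comparison. There the combination mean was 0.870% of the TCP mean (0.192 ± 0.0570 against 22.1 ± 15.4 TPM, SD, n = 2 each). *RGS1* fell by 4.10 on the log2(TPM + 1) scale (SE 0.42, limma adjusted p = 0.000353). That value was -3.35 without TCP replicate 1, the library with the highest *RGS1*, and -6.06 with a pseudocount of 0.1, with adjusted p = 0.00750 at most under any alternative. That highest value was with no filter on low values, and *RGS1* had passed the filter only through libraries in which it is high. A limma fit of the TCP and combination libraries alone, spread included, gave an adjusted p of 0.00320 (SE 0.48). There too *RGS1* passed the filter only through the TCP libraries, so this p-value is no independent support either. The pseudocount of 1 shrinks folds of a gene this low. In bulk RNA, fewer cells that express a gene and less RNA per cell cannot be told apart.

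*RGS16*, like *RGS1* an R4 gene on chromosome 1, was lower in the same libraries but kept a measurable level. It was at 22.1 and 13.9 TPM in control, 17.0 and 9.41 with TCP, 2.58 and 1.80 with palbociclib, and 2.50 and 2.37 with the combination. The groups with and without palbociclib did not overlap. Against TCP the combination held 18.4% of the *RGS16* mean (2.44 ± 0.0979 against 13.2 ± 5.40 TPM, SD, n = 2 each), and the transcript fell by 2.00 on the log2(TPM + 1) scale (SE 0.31, limma adjusted p = 0.00189). This call was lost by a small margin without combination replicate 1 (adjusted p = 0.0125, limma), without combination replicate 2 (0.0148) and with no filter on low values (0.0216). With palbociclib alone, the log2 fold change against control was -2.55 (SE 0.31), given without a test.

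*RGS18*, best known from platelets and myeloid cells, went the other way. It was at 8.11 and 10.5 TPM in control, 5.13 and 5.90 with TCP, 50.7 and 51.6 with palbociclib, and 37.5 and 38.4 with the combination. The 4 groups did not overlap in any pair, and the libraries with palbociclib were all above those without. The combination was 6.88-fold above TCP (37.9 ± 0.587 against 5.51 ± 0.545 TPM, SD, n = 2 each). *RGS18* rose by 2.58 on the log2(TPM + 1) scale (SE 0.13, limma adjusted p = 3.9e-05), and the value stayed between 2.50 and 2.76 under the alternatives. With palbociclib alone the log2 fold change was 2.35 (SE 0.13), given without a test.

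**Figure D1:**
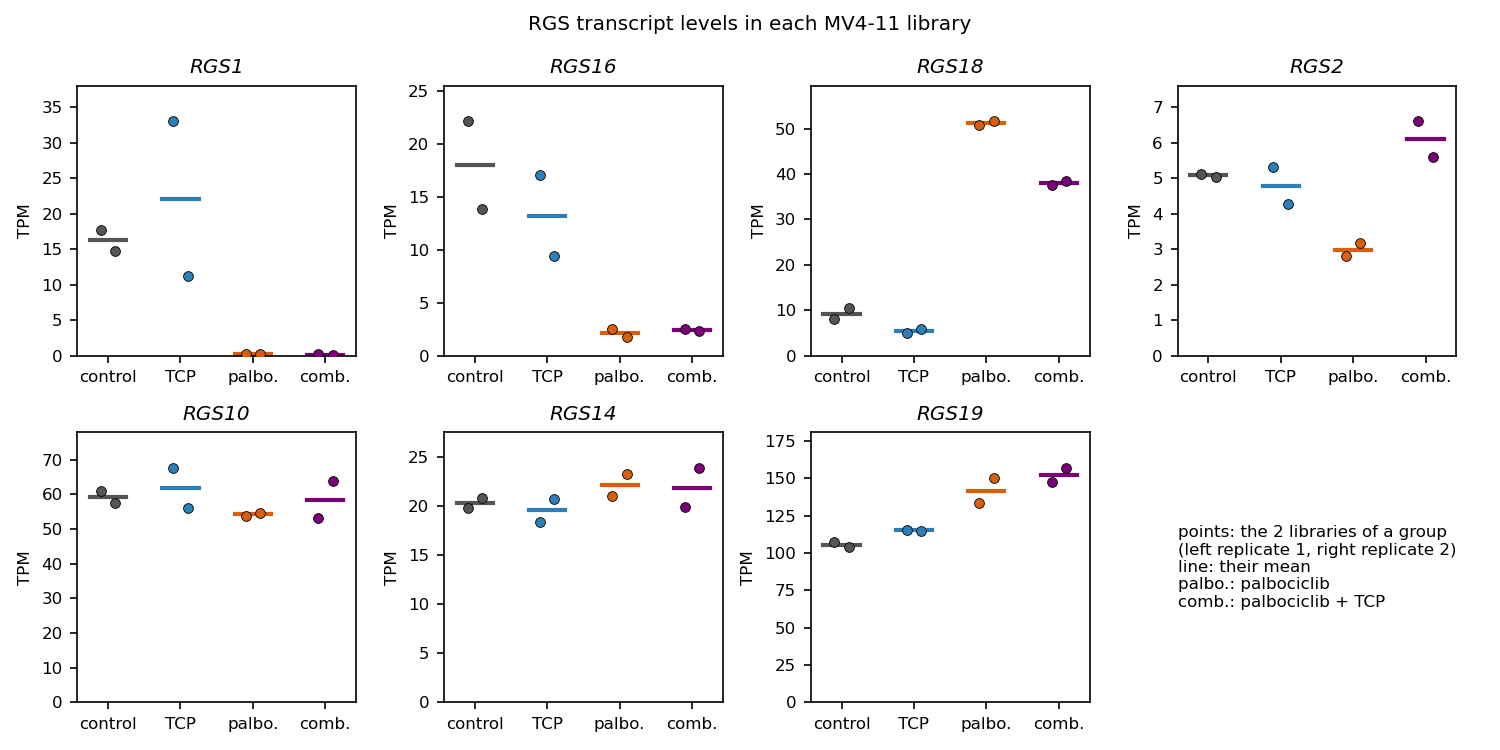
TPM (linear axes from 0) of the 7 RGS genes in each of the 8 libraries, by group; points are libraries and lines are means of 2. *RGS1* and *RGS16* are low and *RGS18* is high in the 4 libraries that received palbociclib, *RGS2* is lowest with palbociclib alone, and *RGS10* and *RGS14* overlap between most groups.

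Of the 7 genes, 3 passed the thresholds in the combination against TCP, 1 higher and 2 lower. To pass, a gene had to differ by 1 or more on the log2 scale, in either direction, with an adjusted p below 0.01 (Benjamini-Hochberg over all genes tested). Over all genes, 5.46% were higher and 6.7% lower in this comparison, with a median log2 fold change of -0.18, while the median of the 7 was 0.15. The set was built around *RGS1*, so its count is not set against these shares as evidence. In the combination against control, where 5.87% of all genes were higher and 7.82% lower, the log2 fold change of *RGS1* was -3.85 (SE 0.42), or -5.81 with a pseudocount of 0.1. It is given without a test, because *RGS1* was chosen on the same control libraries. *RGS16* fell by 2.43 (SE 0.31, adjusted p = 0.000718, and 0.0113 with no filter on low values, limma). *RGS18* rose by 1.93 (SE 0.13, limma adjusted p = 6.5e-05). The p-values of *RGS16* and *RGS18* rest on the same control libraries, and these genes were chosen with earlier results known. Those p-values are no independent support. In the contrast that chose *RGS1*, palbociclib against control, 4.54% of all genes were higher and 4.56% lower.

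None of these 3 genes passed for TCP, alone or added to palbociclib. *RGS18* had 59.3% of the control mean with TCP alone, and both TCP libraries were below both control libraries. Its log2 fold change was -0.65 (SE 0.13, limma adjusted p = 0.130, and 0.0440 with the replicate number as a block), short of both thresholds. Added to palbociclib, TCP left *RGS18* at 74.1% of the palbociclib mean, again with no overlap (log2 fold change -0.42, SE 0.13, limma adjusted p = 0.149). *RGS1* differed with TCP by 0.24 (SE 0.42), and by -0.50 or 0.98 when TCP replicate 1 or TCP replicate 2 was left out, so its direction with TCP alone was set by 1 library. *RGS16* differed by -0.44 (SE 0.31). None of the 7 genes passed in TCP against control by limma, and 1, *RGS18*, had an unadjusted p below 0.05. Over all genes 0.0565% passed in that comparison, in either direction, and 8.77% had an unadjusted p below 0.05.

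*RGS2*, whose product is a brake on Gq signals, had a pattern of its own. It was at 5.13 and 5.03 TPM in control, 5.31 and 4.28 with TCP, 2.82 and 3.17 with palbociclib, and 6.61 and 5.61 with the combination. Palbociclib alone gave the lowest 2 libraries and the combination the highest 2. The combination mean was 2.04-fold that of palbociclib (6.11 ± 0.709 against 2.99 ± 0.247 TPM, SD, n = 2 each). The log2 fold change was 0.83 (SE 0.15, limma adjusted p = 0.0323, or 0.0190 with the block), which is short of both thresholds. Against TCP the combination gave 0.30 (SE 0.15, limma adjusted p = 0.130), with both combination libraries above both TCP libraries. Palbociclib alone against control gave -0.61 (SE 0.15), with no test. The combination departed from the sum of both single changes by 0.90 (SE 0.21) for *RGS2*, and by 0.56 (SE 0.43) for *RGS16*, 0.23 (SE 0.18) for *RGS18* and -0.32 (SE 0.59) for *RGS1*. These departures hold the choosing contrast and carry no test. For *RGS1* the departure was 0.42 without TCP replicate 1 and -1.06 without TCP replicate 2. None of the 7 genes passed in the combination against palbociclib by limma, and 2, *RGS2* and *RGS18*, had an unadjusted p below 0.05. In that comparison 0.502% of all genes passed in either direction, and 17.5% had an unadjusted p below 0.05. The comparison shares the palbociclib libraries with the choosing contrast.

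*RGS10*, *RGS14* and *RGS19*, the members outside the R4 subfamily, changed by less than 1 on the log2 scale in all comparisons. *RGS19* was the most abundant RGS transcript in every library, at 107 and 104 TPM in control, 116 and 115 with TCP, 134 and 150.1 with palbociclib, and 147 and 157 with the combination. Both combination libraries were above both TCP libraries. The log2 fold change was 0.40 (SE 0.08, limma adjusted p = 0.00588) against TCP and 0.52 (SE 0.08, adjusted p = 0.00167) against control. The latter comparison shares its control libraries with the choosing contrast. In the main fit the difference exceeded the spread between libraries while its size stayed under the fold limit. In neither comparison did the adjusted p of *RGS19* stay below 0.01 under all alternatives. *RGS10*, abundant in myeloid and microglial cells, was at 60.9 and 57.6 TPM in control, 67.7 and 56.1 with TCP, 53.9 and 54.7 with palbociclib, and 53.1 and 63.9 with the combination. Its groups overlapped except palbociclib against each of control and TCP. *RGS14* was between 18.4 and 23.9 TPM in all 8 libraries. In the combination against TCP the log2 fold change was -0.08 (SE 0.12, limma adjusted p = 0.614) for *RGS10* and 0.15 (SE 0.12, adjusted p = 0.322) for *RGS14*.

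The scale of TPM itself moved these small values. Scaling libraries to equal median ratios, each ratio taken gene by gene against the mean over libraries, took the median log2 fold change of all genes in the combination against TCP from -0.18 to -0.01, and in the combination against control from -0.22 to -0.01. On that scale *RGS10* turned to 0.10 in the combination against TCP, and *RGS19* was at 0.58. *RGS1*, *RGS16* and *RGS18* were at -4.01, -1.85 and 2.75.

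**Figure D2:**
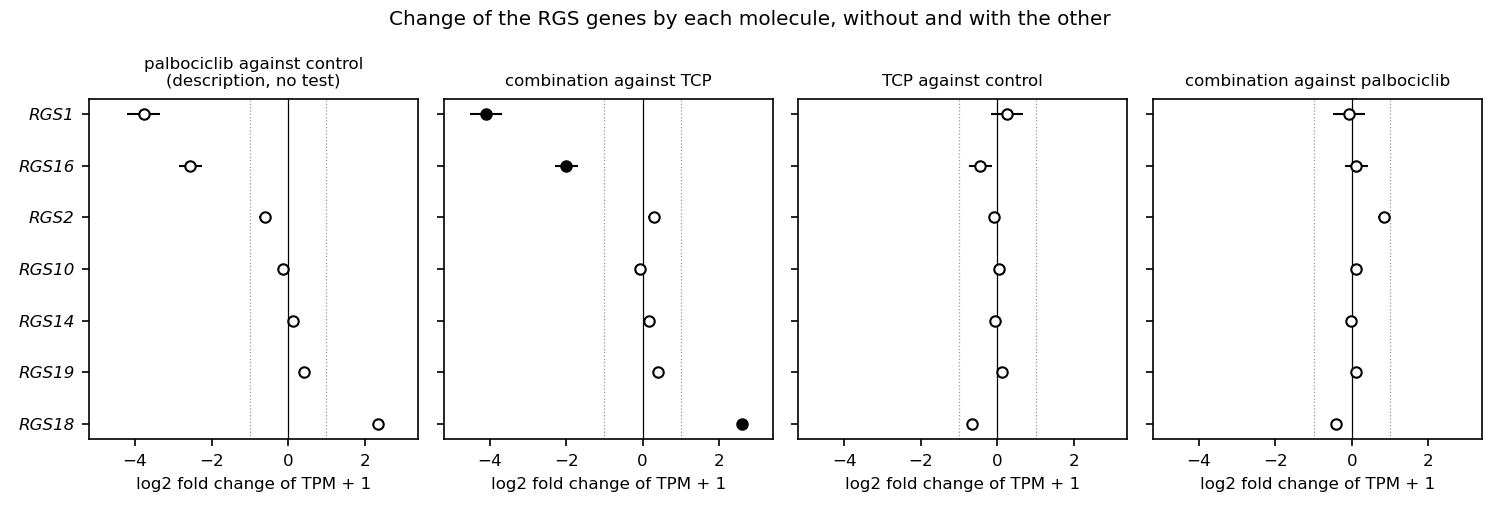
Log2 fold change of TPM + 1 of the 7 RGS genes in 4 comparisons; bars are standard errors from limma, filled points passed the thresholds and dotted lines mark the fold limit of 1. In the combination against TCP, *RGS1* at -4.10, *RGS16* at -2.0 and *RGS18* at 2.58 are filled; no point is filled for TCP, with or without palbociclib, and palbociclib against control is drawn open because it was not tested.

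As TPM are per length, levels can be set beside each other between genes. In control, *RGS19* (106 ± 2.61 TPM) and *RGS10* (59.3 ± 2.36) came first, *RGS14* (20.3 ± 0.674), *RGS16* (18.02 ± 5.84) and *RGS1* (16.3 ± 2.14) formed a middle group, and *RGS18* (9.30 ± 1.68) and *RGS2* (5.08 ± 0.0711) came last (mean ± SD, n = 2). *RGS16* could not be ordered against *RGS14* or *RGS1*, whose library values it overlapped. In the combination the order was *RGS19* (152 ± 6.94), *RGS10* (58.5 ± 7.67), *RGS18* (37.9 ± 0.587), *RGS14* (21.9 ± 2.85), *RGS2* (6.11 ± 0.709), *RGS16* (2.44 ± 0.0979) and *RGS1* (0.192 ± 0.0570), with no overlap between neighbours. Among all genes tested, the mean level of *RGS1* moved from the 42.3 percentile in control to 0.834 in the combination, and that of *RGS18* from 31.4 to 68.9.

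The summed level of all 21 RGS genes varied little beside these members, from 232 to 301 TPM across the 8 libraries. *RGS19* made up 42.4% to 53.6% of that sum and *RGS10* 18.6% to 24.8%. The share of *RGS18* was 1.88% to 4.47% in control and TCP libraries, 17.6% to 18.7% with palbociclib and 12.8% to 13.6% with the combination. *RGS1* held 4.83% to 12.1% of the sum without palbociclib and 0.0506% to 0.108% with it, and *RGS16* 4.06% to 8.86% and 0.614% to 0.951%. Shares of a sum are tied to each other, so 1 member that gains lowers the others.

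*RGS18*, *RGS1* and *RGS2* are neighbours in a cluster of RGS genes on chromosome 1. In the combination against TCP *RGS18* rose and *RGS1* fell, and *RGS2* did not pass. In the GENCODE annotation of GRCh37, the build of hg19, *RGS18* lies at chr1:192127592-192154945, *RGS1* at chr1:192544893-192549154 and *RGS2* at chr1:192778169-192781405, all on the plus strand. With *RGS21* and *RGS13* between them, the cluster holds 5 protein-coding genes over 653.8 kb. *RGS21* was at 0 TPM in all 8 libraries. *RGS13* was at 0.156 and 0 TPM in control, 0.573 and 0.050 with TCP, and 0 in all 4 libraries with palbociclib, too low to be tested. The starts of *RGS18* and *RGS1* are 417.3 kb apart, and *RGS2* starts 233.3 kb beyond *RGS1*. *RGS16*, which had the same direction as *RGS1*, is at chr1:182567758-182573524 on the minus strand, with its start 9.97 Mb from that of *RGS1*. The other members are on other chromosomes, *RGS10* at chr10:121259329-121302231 (−), *RGS14* at chr5:176784925-176799597 (+) and *RGS19* at chr20:62704534-62711341 (−). All 5 cluster genes are overlapped on the minus strand by an antisense long noncoding RNA of the annotation. The library kit keeps strand, but the strand setting of the counting is not given in the sources used here, so reads of a gene and of this RNA may not have been told apart.

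Of the 14 RGS genes outside the 7, *RGS3*, *RGS5* and *RGS12* were expressed enough to be tested, and none passed in any of the 4 comparisons tested by limma. By unadjusted p below 0.05, 1 (*RGS3*) differed in the combination against control and 0 in the combination against TCP, TCP against control and the combination against palbociclib. The shares of all genes at that level were 59.2%, 57.2%, 8.77% and 17.5%, in the same order. *RGS12*, an R12 gene, was the highest of them, at 5.71 and 5.26 TPM in control, 6.27 and 6.46 with TCP, 3.41 and 4.32 with palbociclib, and 4.21 and 5.61 with the combination. Its combination libraries were below its TCP libraries (log2 fold change -0.33, SE 0.16, limma adjusted p = 0.133). The log2 fold change in that comparison was 0.38 (SE 0.18, limma adjusted p = 0.117) for *RGS3* and -0.21 (SE 0.19, adjusted p = 0.398) for *RGS5*. The other 11 stayed below 1 TPM in every library, up to 0.973 TPM for *RGS17*, with *RGS6* and *RGS21* at 0 in all.

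The alpha subunits of G proteins, a list not limited to Gi and Gq, did not change past the thresholds. Of 8 tested in the combination against TCP, 0 passed by limma, with a median log2 fold change of -0.11. An unadjusted p below 0.05 was found for 6, with folds under the limit, as for 57.2% of all genes at any fold. Up to 1 passed under an alternative that kept the fold limit. With no fold limit, *GNAI2* (log2 fold change 0.49, limma adjusted p = 0.00983) and *GNAQ* (0.84, 0.00693) passed as higher. *GNAI3* (-0.35, 0.00612), *GNA13* (-0.55, 0.00391) and *GNAS* (-0.61, 0.00108) passed as lower. Beta and gamma subunits had 13 tested, 1 higher and 1 lower, near the shares of all genes (5.46% and 6.7%), with a median of -0.01. *GNG2*, a gamma subunit of blood cells, was at 2.21 and 3.12 TPM with TCP and 8.20 and 6.23 with the combination, and rose by 1.17 (SE 0.20, limma adjusted p = 0.00320). *GNB3*, a beta subunit, was at 5.10 and 5.60 TPM with TCP and 0.943 and 1.79 with the combination, and fell by 1.45 (SE 0.25, limma adjusted p = 0.00287). Neither call was firm. *GNG2* lost it in 5 alternatives, among them leaving out TCP replicate 1 (log2 fold change 0.99), combination replicate 1 (0.99) or combination replicate 2 (adjusted p = 0.0107, limma), and *GNB3* lost it in 4, among them leaving out TCP replicate 1 (adjusted p = 0.0112), TCP replicate 2 (0.0143) or combination replicate 1 (0.0184).

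Other proteins that bind alpha subunits had 12 tested, with 0 higher, 2 lower and a median of -0.14, where 6.7% of all genes were lower. *NUCB2*, a calcium-binding protein that can interact with alpha subunits, was at 448 and 455 TPM in control, 355 and 326 with TCP, 208 and 217 with palbociclib, and 112 and 122 with the combination. The 4 groups did not overlap, and against TCP it fell by 1.54 (SE 0.08, limma adjusted p = 4.0e-05). *GPSM2*, which carries GoLoco motifs as RGS14 does, was at 19.8 and 22.5 TPM with TCP and 6.53 and 8.22 with the combination and fell by 1.41 (SE 0.13, limma adjusted p = 0.000243). Of the 7 receptor kinases and arrestins tested, which silence receptors themselves, 0 passed by limma, with a median of 0.24 and 4 at an unadjusted p below 0.05, near the 57.2% of all genes.

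Upstream of the RGS proteins, 30 leukocyte G protein-coupled receptors were tested, not all of them coupled to Gi. In the combination against TCP 14 rose, 1 fell and 15 did not pass, with a median log2 fold change of 1.10 beside -0.18 over all genes, of which 5.46% were higher and 6.7% lower. With no filter on low values 9 of the receptors rose. *C5AR1*, among the 14, passed that filter only through the combination libraries (5.39 and 4.60 TPM), in which it was high. *P2RY13*, which did not pass the thresholds, was among the 30 only through the palbociclib libraries (1.49 and 1.36 TPM). *FPR1* and *FPR2* encode receptors of formyl peptides. *FPR1* was at 0.355 and 0.628 TPM in control, 1.21 and 1.14 with TCP, 21.2 and 18.6 with palbociclib, and 74.2 and 54.7 with the combination, and rose by 4.89 against TCP (SE 0.18, limma adjusted p = 1.4e-05). *FPR2* was at 0.752 and 1.22 TPM with TCP and 32.5 and 33.2 with the combination and rose by 4.10 (SE 0.14, limma adjusted p = 1.2e-05). *CX3CR1*, the fractalkine receptor, was at 1.57 and 2.91 TPM with TCP and 39.2 and 49.0 with the combination and rose by 3.82 (SE 0.29, limma adjusted p = 0.000112). All 3 had both combination libraries far above both TCP libraries. The receptor that fell was *CCR7*, the lymph node homing receptor, named here after its values were seen, at 7.39 and 5.58 TPM with TCP and 0.927 and 0.474 with the combination (log2 fold change -2.14, SE 0.24, limma adjusted p = 0.000465). Like *RGS1*, *CCR7* passed the filter only through the control (2.16 and 1.31 TPM) and TCP libraries, in which it was high. Its p-value is therefore no independent support for a fall. Stromal markers summed higher in the combination than in the TCP libraries as given above, and their part in these changes was not tested.

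In TCP against control, 1 gene of these pathway lists passed the thresholds, beside 0.0565% of all genes in either direction. *GPR65*, a proton-sensing receptor of leukocytes, was at 3.95 and 3.64 TPM in control and 13.3 and 12.3 with TCP, and rose by 1.53 (SE 0.12, limma adjusted p = 0.00956). It was at 3.41 and 3.74 TPM with palbociclib and 13.8 and 12.3 with the combination. The call was lost when any 1 of the 4 libraries compared was left out (adjusted p = 0.108 without control replicate 1, 0.0666 without control replicate 2, 0.0408 without TCP replicate 1 and 0.0389 without TCP replicate 2, limma), while the fold stayed between 1.47 and 1.58.

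Downstream, 21 effectors were tested, of which 4 rose, 1 fell and 16 did not pass in the combination against TCP, with a median of 0.48. The 1 that fell is near the 6.7% of all genes that were lower there, and 5.46% were higher. *PDE4B*, a phosphodiesterase that degrades cAMP, was at 6.33 and 7.82 TPM in control, 6.31 and 8.90 with TCP, 29.0 and 41.4 with palbociclib, and 27.6 and 31.2 with the combination, and rose by 1.84 (SE 0.21, limma adjusted p = 0.000589). *PRKAR2B*, a regulatory subunit of protein kinase A, was at 4.30 and 5.06 TPM with TCP and 14.3 and 14.4 with the combination and rose by 1.44 (SE 0.15, limma adjusted p = 0.000360). *ITPR3*, a calcium release channel that opens after Gq signals, was at 5.99 and 4.26 TPM with TCP and 1.37 and 1.30 with the combination and fell by 1.38 (SE 0.19, limma adjusted p = 0.00118, and 0.0107 without combination replicate 2). The other 2 that rose, named after their values were seen, were *PIK3R5* by 1.21, a subunit of the PI3 kinase that beta-gamma dimers activate, and *PLCB2* by 1.08, a phospholipase C, the latter by 0.98 without TCP replicate 2.

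**Figure D3:**
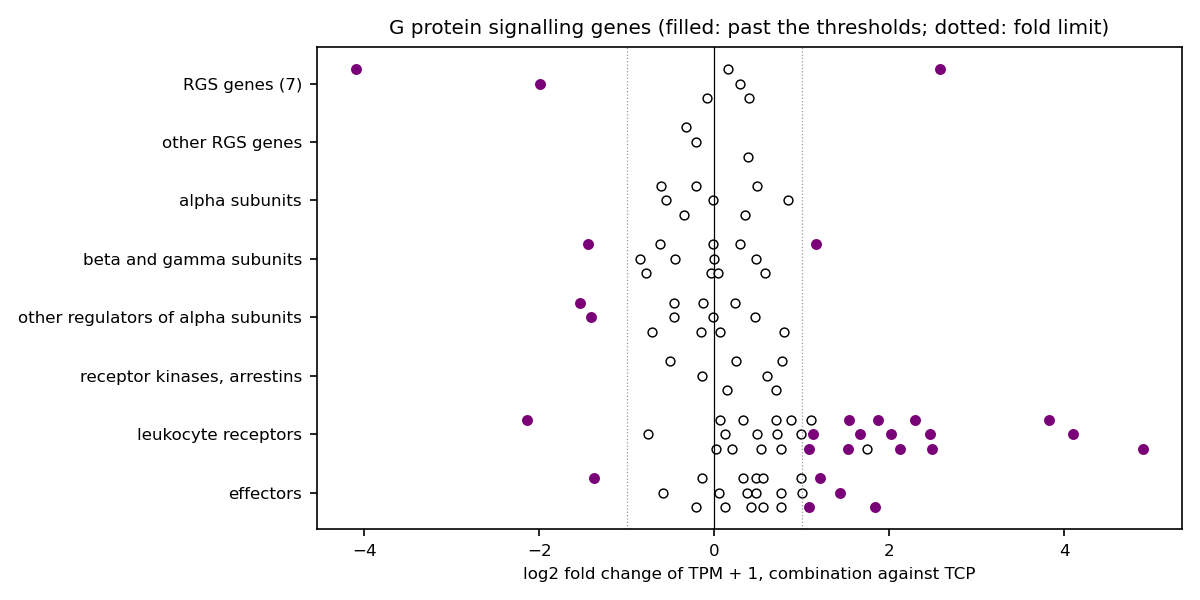
Log2 fold change of TPM + 1 in the combination against TCP for each tested gene of the G protein pathway, 1 row of points per list; filled points passed the thresholds and dotted lines mark the fold limit. Leukocyte receptors lie mostly to the right of 0, with 14 filled there and 1 on the left, while none of the 8 alpha subunits is filled and the 7 RGS genes are spread from -4.10 to 2.58.

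The genes whose levels followed each member most closely over the 8 libraries were sought among 11653 tested genes with a mean of at least 5 TPM in their highest group. These correlations of log2(TPM + 1) are descriptions without a test, because the libraries fall into those with and without palbociclib and any gene that separates them will correlate. Closest to *RGS1* were *ANKRD26* (Pearson's r = 0.997), *DACT3* (0.996), *LOC100130872* (0.996), *XBP1* (0.995) and *INSIG1* (0.995). *XBP1*, a transcription factor of the unfolded protein response, was at 1237 and 1013 TPM in control, 1312 and 956 with TCP, 382 and 353 with palbociclib, and 384 and 342 with the combination. It had its highest value in TCP replicate 1, as *RGS1* did. Closest to *RGS16* were *CTH* (0.998), an enzyme of cysteine synthesis, and *ADM2* (0.997). *CTH* was at 32.8 and 20.4 TPM in control, 28.2 and 10.8 with TCP, 1.73 and 1.24 with palbociclib, and 1.88 and 1.64 with the combination. Like *RGS16*, *CTH* was higher in replicate 1 than in replicate 2 of every group.

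Closest to *RGS18* were *CEACAM4* (0.999), a granulocyte surface protein, and *PTPN12* (0.998), a phosphatase. *CEACAM4* was at 5.85 and 9.69 TPM in control, 2.65 and 3.95 with TCP, 94.1 and 116 with palbociclib, and 59.9 and 70.8 with the combination, so that its groups stood in the same order as those of *RGS18*. For *RGS2* they were *SETD7* (0.962) and *PANDAR* (0.944), for *RGS19* *SLC22A18AS* (0.994) and *SH3TC1* (0.992), for *RGS14* *LOC101929516* (0.980) and *TNFRSF21* (0.976), and for *RGS10* *TRAF1* (0.941) and *IDH3G* (0.926). *RGS1* and *RGS16* had an r of 0.98 with each other, and *RGS1* and *RGS18* of -0.97, over libraries that share the same split. Within groups, replicate 1 was above replicate 2 in 4 of 4 groups for *RGS1* and *RGS16* and in 0 of 4 for *RGS18* and *RGS14*.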

How the data were processed

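RNA-seq libraries of MV4-11 cells were analysed from the deposited TPM, which the authors computed from gene counts after mapping to hg19. The submitters' processing notes name Subread, featureCounts 1.6.4, SAMtools 1.9 and DESeq2 1.26.0. The gene annotation and strand setting are not given in the sources used here, and the depth is unknown, so no counting interval is given. All columns of values belonged to the 8 libraries.

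Genes that reached 1 TPM in 2 or more libraries were kept. A model of 4 group means was fitted to log2(TPM + 1) of all 8 libraries in R 4.3.3 (limma 3.58.1, mean-variance trend), which left 4 residual degrees of freedom. Thresholds were those of the study, an adjusted p below 0.01 (Benjamini-Hochberg over 14151 genes) with a log2 fold change of 1 or more in either direction. With 2 against 2 libraries, an exact permutation test cannot go below p = 0.333.

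The 7 RGS genes, the gene lists and the tests were chosen with earlier results of these data known, and the motifs with the promoter sequences in view. Named besides the RGS genes were at most 3 genes of each pathway list past the thresholds with 5 TPM or more as the mean of the higher group, and the 5 genes (*RGS1*) or 2 genes (other members) of highest correlation. Groups share replicate numbers 1 and 2. Across genes, how far a library lay from its group mean correlated between libraries of the same number (0.169 to 0.491 over 6 pairs of groups). The numbers were therefore taken to pair the libraries, on the data alone. This pairing entered only the alternative with the replicate block, and the main fit left it out. Gene coordinates are from GENCODE on GRCh37, and promoters from RefSeq on GRCh38.p14. Alternatives were the replicate number as a block, other scalings (quantile, or median ratio to the geometric mean), other filters (none, or a mean of 5 TPM), a pseudocount of 0.1, separate fits of the groups compared, no trend, an adjusted p below 0.05, no fold limit, and leaving out each library.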

Additional observations from a re-analysis of the deposited data

Results flagged for a closer look

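The library values of *RGS2* lay in opposite directions with palbociclib in the absence and presence of TCP. Without TCP, both palbociclib libraries (2.82 and 3.17 TPM) were below both control libraries (5.13 and 5.03), with a log2 fold change of -0.61. With TCP, both combination libraries (6.61 and 5.61 TPM) were above both TCP libraries (5.31 and 4.28). This log2 fold change was 0.30 (SE 0.15, limma adjusted p = 0.130) and did not pass. The difference between these effects was not tested, because the first is part of the contrast on which the genes were chosen. How many of all genes showed such a pattern was not counted. Groups of 2 libraries are too small for a check of single outlying samples.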

How the results depend on the processing

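Of 518 log2 fold changes of the RGS genes under an alternative, 496 kept their call, or moved by less than 1 SE where no test was made. Another 18, all without a test, moved by more than 1 SE, and 4, all of *RGS16* and given above, lost their call. None changed direction, where values within 1 SE of 0 are given none. Some values that near 0 did change sign, as for *RGS1* in TCP against control (-0.50 to 0.98). The counts of RGS genes past the thresholds stayed within 1.5 times in each of the 4 comparisons tested. No count was made for palbociclib against control, and *RGS2* could not be tested with a mean of at least 5 TPM. The replicate block, the pairing by number, changed no call of an RGS gene.

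Counts over all genes depended more on the settings. For TCP against control they went from 8 to 20 with the block, 36 at an adjusted p below 0.05, 15 with no fold limit, 3 with quantile normalization or median-ratio scaling, 0 with no filter or a fit of only the groups compared, and 0 to 1 with a library left out, with limma, while 1241 genes had an unadjusted p below 0.05. For the combination against palbociclib they went from 71 to 114 with the block, 183 at an adjusted p below 0.05, 42 with a pseudocount of 0.1, 27 with no filter, 38 with a fit of only the groups compared and 1 with any library left out. With no fold limit, the combination against control went from 1937 to 5091 and the combination against TCP from 1720 to 4602. The cause was not tested.

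The alternatives for pathway genes were added after seeing the data. Of 164 values of named genes 147 kept their call. Tested were 8 alpha subunits, 13 beta and gamma subunits and 12 other proteins that bind alpha subunits. To these came 7 receptor kinases and arrestins, 30 receptors and 21 effectors. In the combination against TCP, 5.46% of all genes were higher and 6.7% lower, and in TCP against control 0.0565% passed. The count over all genes in the combination against TCP also rose with no fold limit, as given above. The 19 pathway genes higher in the combination than with TCP became 33 with no fold limit, and ranged from 15 to 20 with a library left out. The 5 lower ones became 11 with no fold limit, and 2 with a mean of at least 5 TPM, under which fewer genes are tested. The 1 higher with TCP than in control, *GPR65*, became 0 with no filter, with only the groups compared, and with any library left out. The unknown depth limits what can be said of *RGS1* below 1 TPM.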
